A study of Mus musculus with 6 samples.

Results

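The mouse sirtuin family consists of the 7 genes Sirt1 to Sirt7, and these were taken by symbol from a table of 52459 gene rows. All 7 members passed the filter on low counts and were among the 15380 genes tested. Expression had been measured by RNA sequencing in bone marrow derived macrophages of C57BL/6 mice, grown from marrow cells with GM-CSF, a growth factor of myeloid cells. Vehicle or piceatannol, a plant stilbene and hydroxylated relative of resveratrol, was added to the cultures on day 7 and left overnight, and each group held 3 libraries. Neither the dose nor the vehicle is named in the labels. Whether replicate libraries stem from different mice or cultures is likewise unstated, so p-values measure the spread between these libraries, which may be technical. The labels name no genetic change in either group.

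Sirtuins are enzymes that remove acetyl and other acyl groups from lysines and use up NAD+ in doing so, which ties their activity to the supply of that cofactor. SIRT1, SIRT6 and SIRT7 are mainly nuclear, SIRT2 is mainly cytoplasmic, and SIRT3, SIRT4 and SIRT5 are imported into mitochondria. In macrophages SIRT1 and SIRT6 are known as restraints on NF-kB-dependent inflammatory genes, and resveratrol is widely studied for its effects on SIRT1. The comparison here asks which transcripts of the family differed between piceatannol and control cells. RNA levels do not report the activity of these enzymes.

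Piceatannol libraries held more RNA of Sirt1, Sirt6, Sirt3 and Sirt4 than control libraries and less of Sirt5. Sirt1 rose 2.33-fold, Sirt6 1.67-fold, Sirt3 1.56-fold and Sirt4 1.40-fold, while Sirt5 fell 1.72-fold. The remaining members, Sirt2 and Sirt7, are the most abundant of the family and did not pass the test. In the quasi-likelihood test of edgeR, adjusted over all tested genes by the Benjamini-Hochberg method with a threshold of 0.05, 4 sirtuin genes were thus higher and 1 was lower, 5 of 7 in all. Among all tested genes, 77% passed, 38.8% upward and 38.3% downward, so the number of sirtuin genes that changed is near the background of this comparison. The median log2 fold change of the 7 genes was 0.48, against 0.01 over all tested genes. All directions are relative to the scaled library totals and do not report RNA per cell. The even split of all calls depends on that scaling. Upward calls made up 50.3% of them here, 48.95% with scaling by library totals and 53.0% with upper-quartile scaling. Under those 2 scalings the median over all tested genes was -0.02 and 0.06. Groups did not overlap for 6 of the 7 sirtuin genes, where 79% of tested genes had groups that did not overlap.

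Levels below are CPM (counts per 1000000 of the scaled library total) unless FPKM is named, with the SD over 3 libraries, and each log2 fold change is piceatannol over control with its standard error. Adjusted p-values are from the edgeR test just described. Gene positions refer to GRCm38 as annotated in GENCODE M21.

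Sirt1 (chromosome 10, 63319005 to 63381704, minus strand) encodes the nuclear deacetylase of p53, FOXO factors and the NF-kB subunit p65. It measured 18.4, 15.8 and 16.2 CPM in control replicates 1 to 3 and 46.8, 35.5 and 35.2 CPM in piceatannol replicates 1 to 3. The lowest piceatannol library lay well above the highest control library, and piceatannol replicate 1 stood above the other two. The mean went from 16.8 ± 1.37 to 39.2 ± 6.63 CPM (SD, n = 3 each), a log2 fold change of 1.22 ± 0.11 (SE), at an edgeR adjusted p of 3.98e-08. Without piceatannol replicate 1 the log2 fold change was 1.07. Of all tested genes, 13.8% had a higher log2 fold change than Sirt1.

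Sirt6 (chromosome 10, 81621785 to 81627797, minus strand) encodes a chromatin-bound deacylase known for repressing glycolytic genes and for its part in DNA repair. Its level was 18.9, 21.5 and 22.6 CPM in control and 33.2, 35.0 and 36.9 CPM in piceatannol libraries. Values within each group lay close together and the groups were clearly apart. The log2 fold change was 0.74 ± 0.08 (SE), at an edgeR adjusted p of 6.07e-08.

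Sirt7 (chromosome 11, 120618372 to 120625240, minus strand) encodes the nucleolar sirtuin that acts on RNA polymerase I transcription. It had 111, 115 and 116 CPM in control and 118, 118 and 136 CPM in piceatannol libraries. The groups lay close together without overlapping, and most of the gap between the means came from piceatannol replicate 3. Its log2 fold change of 0.12 ± 0.06 (SE) did not pass the threshold (edgeR adjusted p = 0.0894), and its 95% confidence interval ran from -0.01 to 0.26. It was 0.05 without piceatannol replicate 3. The call was gained under 3 alternatives, among them upper-quartile scaling (adjusted p = 0.0178) and a stricter count filter (0.0152), and over the 18 alternatives the adjusted p lay between 0.0152 and 0.489.

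Sirt2 (chromosome 7, 28766735 to 28788661, plus strand) encodes the tubulin deacetylase of the cytoplasm, which also acts on p65 and on mitotic regulators. It measured 139, 141 and 152 CPM in control and 131, 143 and 146 CPM in piceatannol libraries, and the groups overlapped. Its log2 fold change was -0.04 ± 0.06 (SE), at an edgeR adjusted p of 0.552. The 95% confidence interval, -0.17 to 0.09 on the log2 scale, leaves room for a small difference in either direction, and the sign of the value turned with the scaling (0.01 with upper-quartile factors).

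Sirt3 (chromosome 7, 140863666 to 140882309, minus strand) encodes the main mitochondrial deacetylase. It rose from 18.7, 20.3 and 20.6 CPM in control to 29.7, 28.9 and 34.2 CPM in piceatannol libraries. No piceatannol library came near the control range, and piceatannol replicate 3 was the highest. The log2 fold change was 0.64 ± 0.08 (SE), at an edgeR adjusted p of 5.82e-07.

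Sirt4 (chromosome 5, 115478010 to 115484725, minus strand) encodes a mitochondrial enzyme that dampens glutamate dehydrogenase and pyruvate dehydrogenase. It gave 351, 313 and 422 counts in control and 382, 328 and 499 counts in piceatannol libraries, or 6.64, 7.13 and 7.14 against 9.07, 9.93 and 10.2 CPM. The raw counts of the groups overlapped because the libraries differed in depth, while the scaled values did not. The log2 fold change of 0.48 ± 0.11 (SE) was the smallest of the family to pass (edgeR adjusted p = 0.000562).

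Sirt5 (chromosome 13, 43365496 to 43395203, plus strand) encodes the mitochondrial desuccinylase and demalonylase. It was the least abundant member, with 319, 290 and 359 counts in control and 154, 140 and 150 counts in piceatannol libraries. As CPM these are 6.04, 6.61 and 6.08 against 3.66, 4.24 and 3.07, and every piceatannol library lay below every control library. The log2 fold change was -0.78 ± 0.15 (SE), at an edgeR adjusted p of 6.69e-05, and the only negative value in the family to pass the threshold. On log2(FPKM + 1), which understates changes of low genes, it was -0.35.

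Among the 5 genes that passed, the interval of Sirt1 stood apart at the top, with 95% confidence limits of 0.99 and 1.45 on the log2 scale. Those of Sirt6 (0.57 to 0.91), Sirt3 (0.47 to 0.81) and Sirt4 (0.25 to 0.71) overlapped each other above 0, and that of Sirt5 (-1.09 to -0.48) lay below. Differences between members were not tested. Each compartment with several members was mixed: the nuclear group held Sirt1, which rose, and Sirt7, which did not pass, and the mitochondrial group held 2 genes that rose and 1 that fell.

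**Figure D1:**
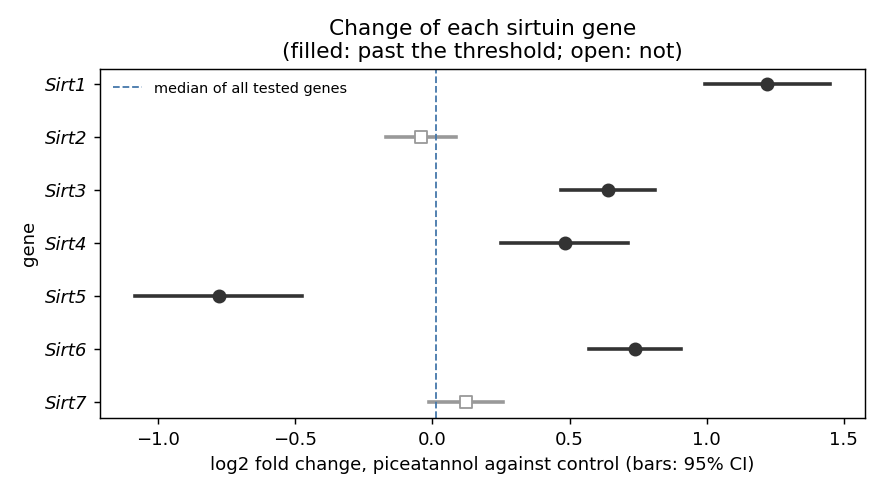
Log2 fold change of each sirtuin gene, piceatannol over control (x axis), with its 95% confidence interval as a bar; filled points passed the threshold, open squares did not, and the dashed line is the median of all tested genes. Sirt1 lies farthest to the right at 1.22 and Sirt5 farthest to the left at -0.78, and the intervals of Sirt2 and Sirt7 include 0.

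Levels of different genes can be compared only per length, and for this the deposited FPKM values (fragments per length of gene and library size, as scaled by the authors) were used. In control libraries the order was Sirt2 (28.6 ± 1.32 FPKM), Sirt7 (22.2 ± 0.526), Sirt6 (7.55 ± 0.688), Sirt3 (3.32 ± 0.169), Sirt1 (3.15 ± 0.254), Sirt4 (2.91 ± 0.122) and Sirt5 (1.03 ± 0.0551; SD, n = 3 each). The ranges of Sirt3 and Sirt1 overlapped, as did those of Sirt1 and Sirt4, so these neighbours were not separated. In piceatannol libraries Sirt1 stood next after Sirt6, at 7.23 ± 1.21 FPKM and clear of Sirt3 (5.10 ± 0.453), which in turn was clear of Sirt4 (4.0 ± 0.248). Sirt6 reached 12.4 ± 0.646 FPKM, and the ranges of Sirt2 (27.4 ± 1.56) and Sirt7 (23.8 ± 1.98) now overlapped. Sirt5 stayed last at 0.593 ± 0.0950 FPKM, 6.74 times below Sirt4 against 2.83 times in control. Dividing CPM by the annotated exon length gave the same order in both groups. In control libraries it also gave nearly the same values, such as 28.57 CPM per kilobase for Sirt2 and 1.024 for Sirt5. The deposited FPKM values thus appear to rest on nearly the same gene lengths. The repeated order is therefore no independent check, and other choices of length were not tested.

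**Figure D2:**
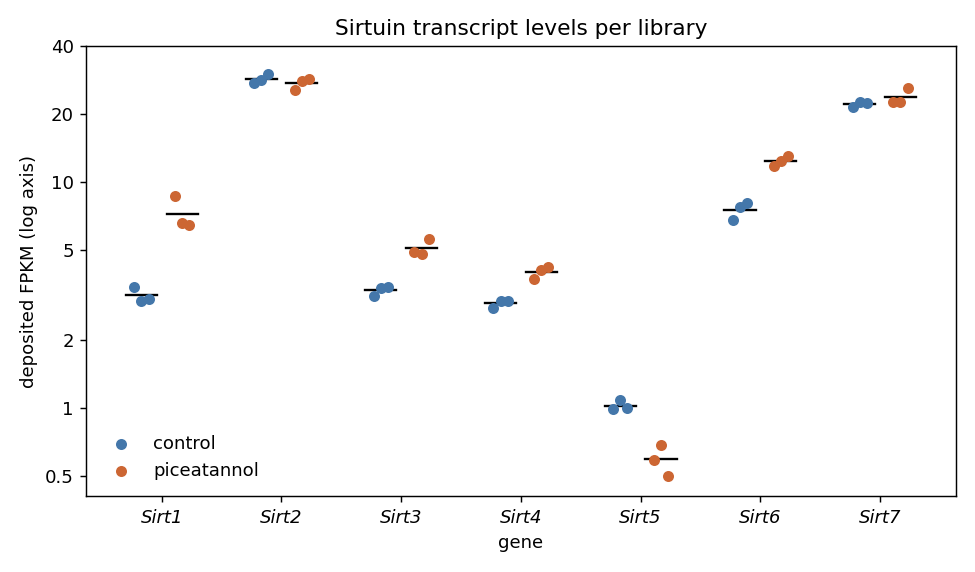
Deposited FPKM (y axis, log scale) of the 7 sirtuin genes in each library, with points for the 3 control and 3 piceatannol libraries and a line at each group mean. The Sirt2 points of the groups overlap between 27.5 and 28.4 FPKM, while the piceatannol points of Sirt1, Sirt3, Sirt4 and Sirt6 all lie above the control points and those of Sirt5 below them.

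Added over the 7 genes, sirtuin RNA came to 66.2, 68.9 and 71.1 FPKM in control and 77.7, 79.4 and 84.3 FPKM in piceatannol libraries. All of the piceatannol sums were above the control sums. The genes of the nuclear enzymes made up 47.9% ± 0.491 of the sum in control and 53.9% ± 1.34 in piceatannol libraries, and Sirt2 made up 41.6% ± 0.678 and 34.0% ± 1.25 (SD, n = 3 each). Sirt1 alone went from 4.6% ± 0.523 to 9.03% ± 1.82 of the sum. The mitochondrial members held 10.6% ± 0.252 and 12.0% ± 0.195, within which the share of Sirt5 went from 1.5% ± 0.0875 to 0.741% ± 0.139 of the whole. These shares follow from the levels given above and carry no test of their own.

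**Figure D3:**
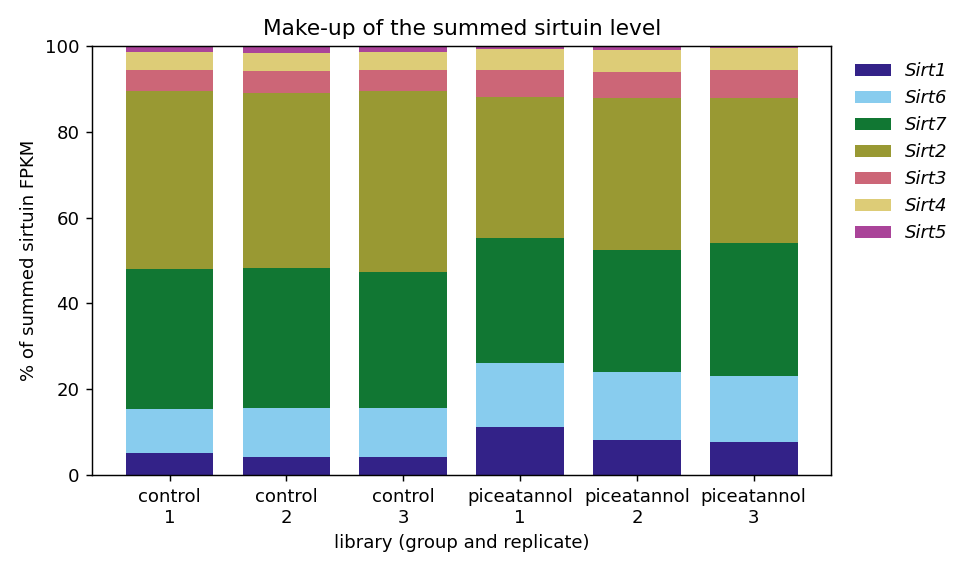
Share of each sirtuin gene in the summed sirtuin FPKM (y axis, percent) for each of the 6 libraries (x axis), stacked with the genes of nuclear enzymes at the bottom. The Sirt1 and Sirt6 segments are taller in the 3 piceatannol libraries, where Sirt1 holds 7.69% to 11.1%, and the Sirt2 segment is shorter.

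Several sirtuin genes share their ends with another gene. As the strand setting of the counting is not given, reads from stretches shared by opposite strands cannot be assigned for certain. Sirt3 is the member with most overlap. Its start lies 341 bases inside the divergent proteasome gene Psmd13, with 342 shared exon bases (5.73% of the exon bases of Sirt3), and its end meets Ric8a, with 418 shared bases (7%). Both neighbours fell, Psmd13 from 134 ± 4.03 to 110 ± 3.26 CPM (log2 fold change -0.28) and Ric8a, which encodes a chaperone of G protein alpha subunits, from 131 ± 3.0 to 96.1 ± 8.55 CPM (-0.44). Sirt3 thus rose while both genes that overlap it fell.

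Sirt2 starts 777 bases inside the divergent gene Nfkbib, which encodes the NF-kB inhibitor IkB-beta, with 42 shared exon bases. Nfkbib rose from 74.1 ± 2.54 to 150 ± 4.10 CPM (log2 fold change 1.02 ± 0.06, SE), while Sirt2 had a value of -0.04 that did not pass. Sirt7 overlaps the end of Mafg, a small MAF transcription factor gene on the same strand, by 124 bases (2.41% of its exon bases). For this pair, reads from the shared stretch could not be separated under any strand setting. Mafg went from 121 ± 7.18 to 292 ± 19.1 CPM (1.27), against 0.12 for Sirt7.

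Ankrd24, an ankyrin repeat gene, starts 743 bases from Sirt6 in the opposite direction without sharing exon bases. It rose with Sirt6, from 6.93 ± 0.705 to 20.5 ± 1.14 CPM (log2 fold change 1.56). Dnajc12, a DnaJ co-chaperone gene, starts 739 bases from the outermost annotated start of Sirt1 but 43408 bases from its RefSeq start, and rose from 16.4 ± 1.16 to 21.2 ± 1.75 CPM (0.37). Of the 6 neighbours tested, 4 rose and 2 fell, where 77% of all tested genes passed, 38.8% upward and 38.3% downward.

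**Figure D4:**
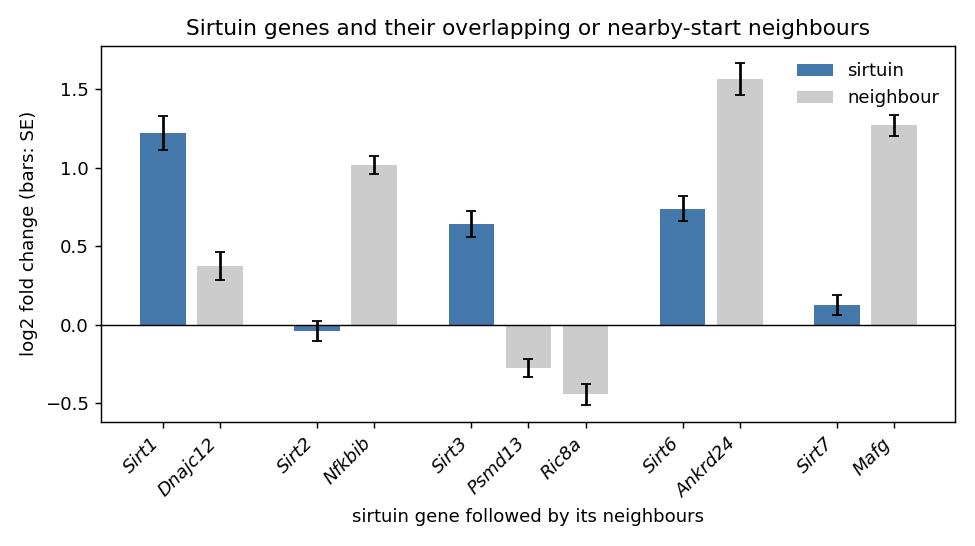
Log2 fold change (y axis, piceatannol over control, error bars SE) of the sirtuin genes that have a tested overlapping or nearby-start neighbour, in blue, each followed by its neighbours in grey. Sirt3 and its neighbours Psmd13 and Ric8a point in opposite directions, Sirt6 and Ankrd24 in the same direction, and Nfkbib (1.02) and Mafg (1.27) stand far above Sirt2 and Sirt7.

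The upstream sequences of Sirt1, with the largest rise, and Sirt5, with the only fall, are shown to let the promoters of these opposite members be compared. Both are from RefSeq on GRCm38.p6, 5′ to 3′ on the strand of the gene, and hold only bases outside annotated exons and ahead of the RefSeq start of the gene. They cover chr10:63339051-63339285 (minus strand) for Sirt1 and chr13:43365285-43365388 (plus strand) for Sirt5. Capitals mark matches on either strand to GGGCGG (the GC box bound by Sp1-type factors) or ACGTG (the core shared by hypoxia response elements and many E-boxes). The Sirt5 stretch holds none, but it has only 104 bases against 235 for Sirt1, so the stretches differ in reach.
Sirt1: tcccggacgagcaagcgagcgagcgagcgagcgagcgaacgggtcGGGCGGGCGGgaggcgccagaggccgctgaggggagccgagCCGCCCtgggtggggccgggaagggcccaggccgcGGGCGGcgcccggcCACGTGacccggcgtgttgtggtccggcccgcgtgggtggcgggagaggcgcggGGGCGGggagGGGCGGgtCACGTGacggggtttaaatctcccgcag
Sirt5: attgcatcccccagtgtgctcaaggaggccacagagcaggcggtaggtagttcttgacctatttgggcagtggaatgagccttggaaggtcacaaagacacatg

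All 7 members matched the RefSeq table, which gives windows of 300 bases around each start, 250 before it and 50 after. The Sirt1 window held 7 matches to GGGCGG, 1 of them after the start and not printed, and 2 to CACGTG, the full E-box, each of which reads as ACGTG on both strands. It also held 1 match to TGACNNNGC, the core of antioxidant response elements, which overlaps the first CACGTG, and its GC content was 79% against a median of 52.7% over 32851 windows. The Sirt5 window held 1 match to GGGCGG, 1 to ACGTG and 0 to CACGTG, at 62% GC. Both matches lie ahead of the start on which this window is set, at positions -36 and -48. They are missing from the printed stretch because it was cut where the RefSeq gene begins. Over all windows, 35.7% held GGGCGG, 19.6% ACGTG, 7.15% CACGTG and 12.4% TGACNNNGC on either strand. Sirt4 had 2 matches to ACGTG, as did 1 of the 2 windows of Sirt6, and no window of Sirt2, Sirt3 or Sirt7 held one. CCGGAAG, the ETS-type motif present in 8.86% of windows, matched in Sirt7 (2 places) and in 1 of the 2 windows of Sirt3 and of Sirt6. The GC box matched in Sirt2, Sirt3, Sirt6 and Sirt7 as well, and TGACNNNGC in Sirt3 and Sirt7. A match to these letters describes the sequence and is not a measured site.

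The genes whose centred log2 CPM over the 6 libraries lay nearest to each sirtuin that passed were listed by Euclidean distance. For Sirt1 the nearest was mt-Co1, a mitochondrially encoded cytochrome oxidase subunit gene (distance 0.07), with a log2 fold change of 1.26. Like Sirt1, mt-Co1 was highest in piceatannol replicate 1, and the share of all mitochondrially encoded counts was 2.65% there against 1.87% and 1.94% in the other piceatannol libraries. With mitochondrially encoded genes left out before scaling, the log2 fold change of Sirt1 was again 1.22. As these genes held at most 2.65% of the counts, leaving them out could hardly move the value. Whether the heights of Sirt1 and mt-Co1 in piceatannol replicate 1 have a common source was not tested. Sirt3 was nearest to Ccdc94 (0.05) and Yipf3 (0.08), Sirt4 to Zfp668 (0.05) and Cant1 (0.06), Sirt5 to Rbms3 (0.11) and Ehd3 (0.13), and Sirt6 to Slc25a28 (0.10) and Pik3r5 (0.11). Within the family, Sirt3 and Sirt6 were the closest pair (distance 0.20) and Sirt1 and Sirt5 the most distant (2.48).

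Genes around the sirtuins were followed through lists, which are described by counts and medians and not tested as sets. Each list count below is to be read beside all tested genes, of which 77% passed, 38.8% upward and 38.3% downward. Of 16 genes of NAD synthesis and salvage, 13 were tested, 7 rose and 4 fell, and the median change was 0.58 (log2). Nampt, the rate-limiting enzyme of the salvage of nicotinamide that sirtuins release, rose 3.35-fold from 164 ± 14.6 to 548 ± 47.6 CPM, and the mitochondrial NAD kinase gene Nadk2 rose 2.65-fold. Pnp, whose product splits nicotinamide riboside among other nucleosides, fell 3.31-fold, and the cytosolic kinase gene Nadk fell by 0.86 on the log2 scale. Nmnat1 (0.08) and Naprt (0.00), which act at the last and first steps of NAD production from nicotinamide mononucleotide and nicotinic acid, did not pass.

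Of 18 genes for other enzymes that consume NAD, 4 rose and 9 fell, and the median change was -0.37 (log2). Parp1, encoding the main DNA-damage-activated poly(ADP-ribose) polymerase, fell 2.30-fold from 119 ± 3.85 to 51.5 ± 0.171 CPM, and Parp11 fell 4.27-fold. Tiparp, a target gene of the aryl hydrocarbon receptor, rose 6.41-fold and Parp6 2.83-fold.

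Of 14 regulators of SIRT1, 6 rose and 8 fell (median log2 fold change -0.31), where 77% of all tested genes passed, and at a threshold of 0.01 the counts were 4 and 7. Ccar2, whose product DBC1 binds and inhibits SIRT1, fell 1.82-fold from 61.8 ± 2.32 to 34.0 ± 1.67 CPM, and the proteasome activator gene Psme3 fell 1.48-fold. Mdm2, the p53 ubiquitin ligase gene, rose 5.99-fold, and Dyrk1a, encoding a kinase that phosphorylates SIRT1, rose 1.41-fold. Of 28 genes for SIRT1 substrates, 11 rose and 6 fell (median 0.07), with Acss2, encoding the nucleocytosolic acetyl-CoA synthetase, at 2.67 and Foxo1 at 1.78 on the log2 scale, while the DNA end-binding gene Xrcc6 (-1.54) and the histone methyltransferase gene Suv39h1 (-0.94) fell.

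Among 14 genes for SIRT2 substrates, 13 were tested, 5 rose and 7 fell (median log2 fold change -0.15). Prdx1 (1.60) and Pkm (1.03), of peroxide removal and glycolysis, rose, while the alpha-tubulin gene Tuba1b (-1.78) and the citrate lyase gene Acly (-1.02) fell. Tuba1c (-0.05) did not pass. Tubulin, Prdx1 and Pkm values are uncertain where near-identical copies share reads.

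Of 26 genes for substrates of the mitochondrial sirtuins, 23 were tested, 15 fell and 6 rose (median log2 fold change -0.32). Among all tested genes, 38.3% fell and 38.8% rose. Shmt2 (-1.27), of mitochondrial one-carbon metabolism, and citrate synthase Cs (-0.99) fell, and the mitochondrial acetyl-CoA synthetase gene Acss1 (2.10) and the protease gene Lonp1 (1.09) rose. Acadvl (-0.14) and Mrpl10 (0.13) did not pass. Sirt3 and Sirt4 themselves rose in these libraries, and Sirt5 fell.

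Of 10 glycolysis genes that SIRT6 is known to repress, 8 rose and 2 fell, and the median change was 1.06 (log2). The glucose transporter gene Slc2a1 (2.60) and the triose phosphate isomerase gene Tpi1 (1.61, uncertain because of pseudogene copies) rose, whereas Aldoc (-1.72) and Pfkm (-0.46) fell, and Sirt6 itself rose by 0.74. The 8 rises may include other genes with such copies, which was not checked. The RNA polymerase I machinery with which SIRT7 works gave 4 rises and 7 falls among 14 genes (median -0.20). Its subunit gene Polr1a (-1.05) and the initiation factor gene Ubtf (-0.78) fell, Taf1a (1.28) and Ttf1 (0.75) rose, and Polr1c (-0.05), Rrn3 (-0.08) and Taf1b (0.01) did not pass.

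The zinc-dependent histone deacetylases, which need no NAD, offered a second family of lysine deacetylases for comparison. Of their 11 genes, 4 rose and 4 fell, and their median change was -0.02 (log2), beside 4 rises and 1 fall and a median of 0.48 among the sirtuin genes. Hdac7 (0.88) and Hdac6 (0.33) rose, Hdac1 (-1.11) and Hdac10 (-0.87) fell, and Hdac3 (-0.02), Hdac5 (0.11) and Hdac9 (-0.47) did not pass. Of 13 lysine acetyltransferase genes, 7 rose and 2 fell (median 0.17), with Kat6b (2.49) and Kat8 (0.52) up and Kat2a (-1.27) and Kat2b (-0.50) down. Whether the families differ was not tested.

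**Figure D5:**
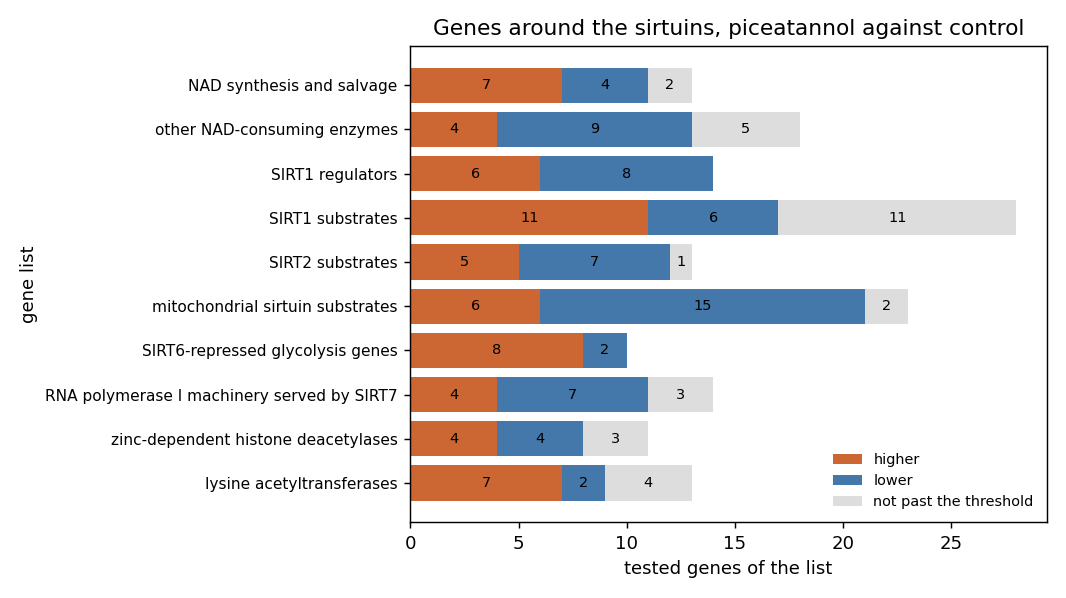
Number of tested genes (x axis) in each list around the sirtuins (y axis) that were higher, lower or not past the threshold with piceatannol. The SIRT6-repressed glycolysis genes have the largest share of rises (8 of 10), and the mitochondrial sirtuin substrates the largest number of falls (15 of 23). Over all tested genes, 38.8% rose and 38.3% fell.

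Other properties of the libraries moved with the groups. Libraries held 43586270 to 58697084 counts in control and 33276569 to 49283203 in the piceatannol group, and mitochondrially encoded genes took 0.820% ± 0.0447 and 2.15% ± 0.431 of them (SD, n = 3 each). Macrophage markers were abundant in every library, with Lyz2 the highest and a summed level of 19163 to 23193 CPM in control and 13297 to 14649 in piceatannol libraries (relative to the unscaled library total, as for the sums below), 2 of 10 rising and 8 falling. Stromal markers, led by Col1a2, summed to 2320 to 2575 CPM in control and 615 to 662 in piceatannol libraries, with 2 of 10 tested genes rising and 5 falling. Dendritic cell markers, led by Itgax, summed to 1950 to 2174 and 874 to 1089 CPM (1 up and 7 down of 9 tested), and neutrophil markers, led by Mmp8, to 862 to 1088 and 615 to 646 CPM (0 up and 8 down of 9). Mmp8 held most of the neutrophil sums and did not pass (559 ± 72.9 against 595 ± 19.5 scaled CPM). The sums therefore understate the falls of the other neutrophil markers, as the median log2 fold change of the 9 tested was -2.85. Mast cell and basophil markers, led by Kit, summed to 38.8 to 43.8 and 74.4 to 90.9 CPM (1 up and 5 down of 6, Mcpt4 at 0), and erythroid and progenitor markers, led by Cd34, to 82.2 to 95.4 and 15.1 to 15.4 CPM (2 up and 2 down of 5, Car1 at 0). Markers of B cells, led by Blnk, summed to at most 13.9 CPM (0 up and 7 down of 7), and those of T and NK cells, led by Lck, to at most 5.11 CPM (1 up and 4 down of 5, Ncr1 and Gzma at 0). These marker counts too stand beside 38.8% of all tested genes that rose and 38.3% that fell. The part of these shifts in the sirtuin values was not tested, and in such bulk samples fewer cells of a type and less RNA per cell cannot be told apart.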

How the data were processed

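For 6 libraries the authors deposited whole-number read counts, not normalized, with 1 row per symbol, and a matching table of FPKM values. Per the submitters' processing notes, bcl2fastq, STAR, featureCounts and DESeq2 were used with mm10 and GRCm38; for versions, annotation and strand setting: not given in the sources used here. Over 1966 abundant genes, the deposited FPKM values were scaled between libraries as DESeq2-type size factors would scale them, not by total counts.

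From the deposited counts, genes were filtered with filterByExpr in edgeR 4.0.16 (R 4.3.3; minimum count 10), leaving 15380 of 52459 genes, scaled with TMM, and compared by a two-sided quasi-likelihood test with robust dispersions, no covariate, Benjamini-Hochberg adjustment and a threshold of 0.05. SE is the log2 fold change over the root of F. The script was tested on simulated data with 67, 67 and 66 genes changed 1.5-fold, 2-fold and 4-fold. It recovered 59.7%, 91% and 93.9% of them, and 16 of its 179 calls were false. Far fewer genes were changed there than passed in these data, so the simulation does not give the error rate here. Alternatives used DESeq2 1.42.0, limma 3.58.1 (voom, and log2(FPKM + 1) or log2(FPKM + 0.1)), other scalings, filters and thresholds, the replicate block and leaving out each library.

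The members and gene lists were chosen with earlier results of these data known. Named genes were the 7 members, up to 2 per list and direction with the smallest p, members not called where 3 or fewer, 2 nearest patterns per called sirtuin, neighbours that overlap or start within 2000 bases, and the top marker of each cell type list. The depth, 33276569 to 58697084 counts per library, leaves Sirt5, with 140 to 359 counts per library, as the least precise member. Protein sequences were not used here. Of the genes that these rules and lists name, 2 are not reported here.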

Additional observations from a re-analysis of the deposited data

How the results depend on the processing

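Over 18 alternatives each, Sirt1, Sirt3, Sirt4, Sirt5 and Sirt6 kept their direction and their side of the threshold, with log2 fold changes of 0.98 to 1.3, 0.49 to 0.70, 0.35 to 0.54, -0.90 to -0.35 and 0.65 to 0.80. The number of sirtuin genes called was 5 or 6 throughout, 6 where Sirt7 was gained. Leaving out each library in turn gave 5, and 11487 to 11880 genes called among all tested. With the replicate block the number was 6, with Sirt7 at an adjusted p of 0.0475, and 6038 genes rose and 5974 fell among all. Deviations of same-numbered libraries correlated at 0.04, 0.07 and 0.07, each the highest for its number but small. Whether the numbers pair the samples is not settled by these values, and the main test used no block. With the block the SE of Sirt1 was 0.07, against 0.11 without it. Scaling by library totals was chosen after seeing the data.

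Values that changed sign were all near 0 and past no threshold, and the cause was not tested. With upper-quartile factors and with the CPM filter (5 CPM in 3 libraries), log2 fold changes turned positive for Sirt2 (0.012 and 0.017), Tuba1c (0.00075 and 0.0062), Polr1c (0.0025 and 0.0079) and Hdac3 (0.028 and 0.034). With upper-quartile factors the median over all tested genes was also higher, at 0.064 against 0.011 in the main test. Naprt turned negative with RLE factors (-7.7e-05), no filter (-0.026), DESeq2 (-0.023), the replicate block (-0.00035), log2(FPKM + 1) (-0.022), log2(FPKM + 0.1) (-0.035) and library totals (-0.027). Taf1b turned negative with no filter (-0.022), DESeq2 (-0.015), limma-voom (-0.0074), log2(FPKM + 1) (-0.013), log2(FPKM + 0.1) (-0.016) and library totals (-0.022). Leaving out each library gave ranges of -0.073 to 0.0042 for Sirt2, -0.14 to 0.13 for Naprt, -0.046 to 0.093 for Taf1b and -0.043 to 0.0015 for Hdac3. Of 1326 values of the named genes, 15 gained a call (Sirt7, Acadvl, Mrpl10 and Hdac5) and 0 lost one, but other list members did lose calls. Called list genes had been named for their smallest p, which made losses unlikely among them. Over the 18 alternatives, rises numbered 9 to 13 for SIRT1 substrates, 4 to 6 for SIRT1 regulators, 5 to 8 for acetyltransferases, 5 to 7 for mitochondrial sirtuin substrates, 6 to 7 for NAD synthesis, 7 to 8 for SIRT6-repressed genes and 4 to 5 for SIRT2 substrates. Falls numbered 6 to 8 for SIRT1 regulators, 6 to 7 for SIRT2 substrates, 3 to 4 for zinc-dependent deacetylases and 3 to 4 for NAD synthesis. Depth limits Sirt5 most, with 140 to 359 counts per library.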
